A study of Mus musculus with 6 samples.

Results

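Transcripts of 9 acute phase genes, Lcn2, Saa1, Saa2, Saa3, Serpina3n, Itih4, Cp, Hp and Orm1, were examined in aortic roots of klotho-deficient and wild-type mice. All probe sets that the platform annotation assigns to exactly 1 gene symbol, that symbol being a listed gene, were taken. This gave 17 probe sets for all 9 genes, out of 34945 probe sets with 1 gene symbol and 45101 in all. Cp had 8 probe sets, Saa1 had 2, and each of the other genes had 1. No probe set assigned to several genes named any of the 9. Both genotypes were C57BL/6J albino mice aged 6 to 6.5 weeks, homozygous for a mutant klotho allele or for the wild-type allele. The roots comprised valve leaflets, annulus and some ascending aorta. Roots of 3 mice were pooled for an array, and each genotype had 3 such pools (9 mice). The labels give the allele no further name, and they say that each pool is a biological replicate, so the errors below describe pools and not single mice.

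The acute phase response is the change in plasma proteins that follows infection or tissue injury. Liver makes most of these proteins, driven by interleukin 6 through STAT3, by interleukin 1 through NF-kB and C/EBP factors, and with glucocorticoids acting alongside. Several of the genes are also transcribed outside liver, Lcn2 and Saa3 above all, by epithelia, fat, macrophages and stromal cells. Lcn2 encodes lipocalin 2, a secreted protein that sequesters bacterial iron-carrying siderophores. The Saa genes encode serum amyloid A apolipoproteins, which ride on high-density lipoprotein. Serpina3n is a secreted serine protease inhibitor, Itih4 an inter-alpha-trypsin inhibitor heavy chain, Cp the copper ferroxidase ceruloplasmin, Hp the haemoglobin-binding haptoglobin and Orm1 the plasma lipocalin orosomucoid.

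Lcn2, Serpina3n and Itih4 had the largest differences above background, and Saa3 had the largest standard error of the 9 genes (1.09). The promoters of these 4 genes, on which the results turn, are shown. They are the 250 bases before the start, from RefSeq (GRCm38.p6), read 5′ to 3′ on the gene's strand, with every match to the motifs searched in capitals. Lcn2 lies at chr2:32387740-32387989 on the minus strand, Saa3 at chr7:46715677-46715926 on the minus strand, Serpina3n at chr12:104406458-104406707 on the plus strand and Itih4 at chr14:30886226-30886475 on the plus strand.
Lcn2: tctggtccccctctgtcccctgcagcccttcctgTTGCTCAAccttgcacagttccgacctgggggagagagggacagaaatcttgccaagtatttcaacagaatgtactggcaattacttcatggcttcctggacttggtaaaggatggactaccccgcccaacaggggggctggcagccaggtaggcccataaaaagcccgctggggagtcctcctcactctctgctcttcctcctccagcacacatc
Saa3: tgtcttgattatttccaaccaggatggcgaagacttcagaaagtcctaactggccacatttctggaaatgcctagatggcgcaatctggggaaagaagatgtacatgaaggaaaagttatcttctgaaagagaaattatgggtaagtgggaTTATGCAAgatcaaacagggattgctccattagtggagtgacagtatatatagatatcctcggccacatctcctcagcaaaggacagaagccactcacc
Serpina3n: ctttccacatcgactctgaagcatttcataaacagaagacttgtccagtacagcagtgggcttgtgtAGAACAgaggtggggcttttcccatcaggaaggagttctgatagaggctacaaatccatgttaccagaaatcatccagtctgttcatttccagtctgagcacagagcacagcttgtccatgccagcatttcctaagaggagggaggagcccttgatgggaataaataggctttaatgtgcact
Itih4: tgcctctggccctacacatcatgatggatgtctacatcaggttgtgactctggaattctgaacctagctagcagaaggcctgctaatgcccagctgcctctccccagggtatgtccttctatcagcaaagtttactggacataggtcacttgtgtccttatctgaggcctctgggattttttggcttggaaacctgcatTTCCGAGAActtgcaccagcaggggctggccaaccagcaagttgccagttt

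Motifs were searched on both strands in these windows, and a match is a description and not a binding site. A C/EBP core, TTGCNNAA, was matched in Lcn2 as TTGCTCAA from base -216 and in Saa3 as TTATGCAA from base -99, counting back from the start. It is found in 9.56% of all 32851 promoter windows of this length. The window of Itih4 held a STAT element, TTCNNNGAA, as TTCCGAGAA from base -51, which 7.02% of windows hold. In Serpina3n the match was the glucocorticoid receptor hexamer, TGTTCT, read on the other strand as AGAACA from base -183 and present in 16.1% of windows. The IL-6 type II element CTGGGAA (9.1% of windows) and the NF-kB consensus (3.9%) matched in none of the 4 windows, nor did TATAAA (12.4%). Windows were given for 7 of the 9 genes. Saa1 and Saa2 each held the same C/EBP match, TTGCACAA, and their windows were 94.8% identical, with 11 mismatches and 2 gap positions. Either of them was clearly different from Saa3 (48.2% identical for Saa1). Of the 2 Cp windows, 1 held a C/EBP match.

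Values are deposited array intensities, on which the brightest of 27 probe sets for Bacillus genes, absent from mouse, reached 161.8; a signal up to that level is called background here. Between 69% and 75.4% of probe sets exceeded it per array. Each difference is the klotho-deficient minus the wild-type mean of log2 values, ± SE, fitted with limma over all 34945 probe sets with Benjamini-Hochberg adjustment, and a call is an adjusted p under 0.05. All 7 smooth muscle and all 8 fibroblast and valve interstitial markers were above background on every array. The targeted gene did not check the labels, since its signal was near or within background. Kl at probe set 1451892_at ranged over 138.3 to 217.4 in klotho-deficient roots and over 166.7 to 202.1 in wild-type roots (-0.04 ± 0.24). Its other probe set, 1423400_at, gave 31.8 to 83.0 and 51.2 to 110.3 (-0.61 ± 0.48). Y-linked genes were at most 87.9 and 104.4 on klotho-deficient replicates 2 and 3, and reached 4305.3 to 5199.3 on the other 4 arrays. Sex was thus unevenly spread over the genotypes. The 3′ over 5′ signal of the Gapdh control was 7.18 on wild-type replicate 3 and 3.23 to 4.08 elsewhere.

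No probe set of the 9 genes was called in limma, and none of all 34945 was (0%), with adjusted p from 0.744 to 1.000 for the 17. At an unadjusted p under 0.05 there were 4 of the 17, for Lcn2, Saa1, Serpina3n and Itih4, against 2077 of all probe sets (5.94%). With each gene read by its brightest probe set, 6 of the 9 genes were higher and 3 lower, with a median difference of 0.29, against 50.4% higher and a median of 0.00 over all 18193 genes. Differences of 1 or more, a doubling, were found in the same 4 genes, against 4.12% of all genes. Of these, Saa1 was above background on 1 array alone, and Lcn2 and Serpina3n were below 1 with a term for arrays without Y-linked transcripts. Itih4 was at 0.92 when wild-type replicate 3 was left out. The klotho-deficient arrays all lay above the wild-type arrays in 4 of the 9 genes (Lcn2, Saa1, Itih4 and Cp), against 6.63% of all genes, and in none did they all lie below (6.84%). The genes did not share 1 pattern over the arrays. Klotho-deficient replicate 2 was the highest array for 6 of the 9 genes and klotho-deficient replicate 3 for Serpina3n and Itih4, while Hp was highest on wild-type replicate 1.

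**Figure D1:**
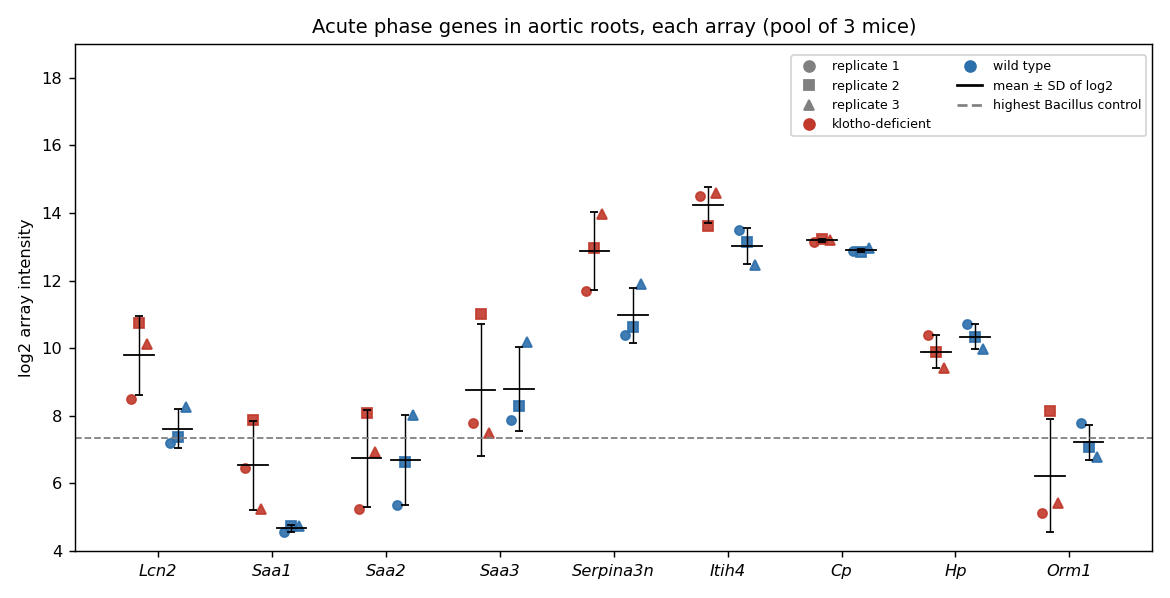
Log2 intensity of the brightest probe set of each of the 9 genes (y axis) on each of the 6 arrays, klotho-deficient in red and wild type in blue, with the marker shape giving the replicate and bars the mean ± SD of log2 values (n = 3). The red points of Lcn2, Saa1, Itih4 and Cp all lie above the blue ones, whereas Saa3 is high on klotho-deficient replicate 2 and wild-type replicate 3; the dashed line is the highest Bacillus control at 161.8.

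Lcn2 was the member with the largest difference. Its intensities were 361.3, 1716.1 and 1111.7 on klotho-deficient replicates 1, 2 and 3, and 147.8, 166.9 and 309.1 on the wild-type arrays. The genotypes did not overlap, but klotho-deficient replicate 1 stood only just above wild-type replicate 3, and wild-type replicate 1 was within background. The means were 1063 ± 679 and 207.9 ± 88.1 (SD, n = 3), and the difference was 2.17 ± 0.62, or 4.49-fold (limma adjusted p = 0.744). Most of the difference was carried by klotho-deficient replicates 2 and 3, the arrays without Y-linked transcripts. With a term for those arrays, which leaves klotho-deficient replicate 1 against the 3 wild-type arrays, the Lcn2 difference was 0.88. The part of sex in the Lcn2 level cannot be told apart from that of these pools.

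Serpina3n resembled Lcn2 in its order of arrays within wild type but not within klotho-deficient roots. It measured 3302, 8010.1 and 16107.7 on klotho-deficient replicates 1 to 3, and 1345.4, 1579 and 3810.4 on the wild-type arrays. Klotho-deficient replicate 1 lay below wild-type replicate 3, so the genotypes overlapped. Means were 9139.9 ± 6477 and 2245 ± 1361 (SD, n = 3), a difference of 1.91 ± 0.67 or 3.75-fold (limma adjusted p = 0.818). The term for arrays without Y-linked transcripts brought it to 0.72.

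Itih4 had another distribution, with its klotho-deficient peak shared by replicates 1 and 3. Its intensities were 23095.6, 12612.4 and 24809.2 in klotho-deficient roots and 11489.4, 9069.9 and 5581.7 in wild type. No array overlapped, though klotho-deficient replicate 2 and wild-type replicate 1 were close. Means were 20172 ± 6603 and 8714 ± 2969.9 (SD, n = 3), and the difference was 1.21 ± 0.39 or 2.32-fold (limma adjusted p = 0.786). Unlike Lcn2 and Serpina3n, the Itih4 difference was no smaller with the term for arrays without Y-linked transcripts, at 1.47; whether the genes differ in this was not tested. Wild-type replicate 3, which was high for Lcn2 and Serpina3n, was the lowest array for Itih4, and without it the difference was 0.92.

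The serum amyloid A genes were read by 4 probe sets, 3 of them with a mean within background. Saa3, which is also transcribed outside liver, measured 222.6, 2074.2 and 180 on the klotho-deficient arrays and 234.4, 311.2 and 1172.4 on the wild-type arrays. It was high on 1 array of each genotype, klotho-deficient replicate 2 and wild-type replicate 3, and the others lay between 180 and 311.2. The difference was -0.01 ± 1.09 (limma adjusted p = 1.000), an error too wide to exclude a doubling either way. Between its highest and lowest arrays Saa3 varied 11.5-fold, and genotype did not order them. The sign of the difference depended on which array was left out, from -1.14 without klotho-deficient replicate 2 to 0.69 without wild-type replicate 3.

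Saa2 was highest on the same arrays as Saa3. Probe set 1449326_x_at gave 37.6, 272.4 and 120.5 in klotho-deficient roots and 41.4, 99.5 and 261.7 in wild type (0.07 ± 0.92). Only klotho-deficient replicate 2 and wild-type replicate 3 exceeded background. Saa1 at 1419075_s_at gave 88, 235.6 and 38.1 against 23.4, 26.5 and 26.7. Only klotho-deficient replicate 2 was above background for Saa1, so no fold is given, and its fitted difference of 1.86 ± 0.64 compares mostly background signals. That difference was 1.18 without klotho-deficient replicate 2 and 1.00 with an offset of 50. The other Saa1 probe set, 1450788_at, was at 4.6 to 12.4 on all 6 arrays.

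Which serum amyloid gene these probe sets read is uncertain. The annotation assigns 1419075_s_at to Saa1, but the transcript accession it lists for that probe set belongs to Saa2 in RefSeq, as does that of 1449326_x_at. The endings s_at and x_at mark probe sets whose probes can match related transcripts. Saa1 and Saa2 are neighbours in RefSeq, in a cluster that also holds Saa3, Saa4 and a pseudogene. The part of shared probes in the common Saa2 and Saa3 pattern was not tested.

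Cp was the steadiest of the genes and had the smallest difference among those without overlap. Its brightest probe set, 1417495_x_at, measured 9062.8, 9612.9 and 9364.2 in klotho-deficient roots and 7562.3, 7418.8 and 7907.8 in wild type. Each genotype was tight and the gap between them was wider than either spread. The means were 9347 ± 275 and 7629.6 ± 251 (SD, n = 3), a difference of 0.29 ± 0.17 (limma adjusted p = 0.866). The SE exceeds what these arrays alone would give because limma moves each variance towards that of other probe sets.

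The other Cp probe sets mostly ran the same way. Of the 8, 7 were higher in klotho-deficient roots, from 0.17 to 0.47, and 1417497_at gave -0.04 ± 0.19. Groups did not overlap at 4 of the 8, against 6.42% of all probe sets without overlap in that direction, but the 8 read the same RNA from the same arrays and are not independent. The steepest was 1448735_at, with 1501.7, 1159 and 1451.2 against 888.1, 1078.6 and 995.9 (0.47 ± 0.20, limma adjusted p = 0.835). The dimmest, 1441326_at, gave 408.7, 983.2 and 248.3 against 467.6, 440.4 and 299.8, and was highest on klotho-deficient replicate 2 as Lcn2 and Saa3 were.

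**Figure D2:**
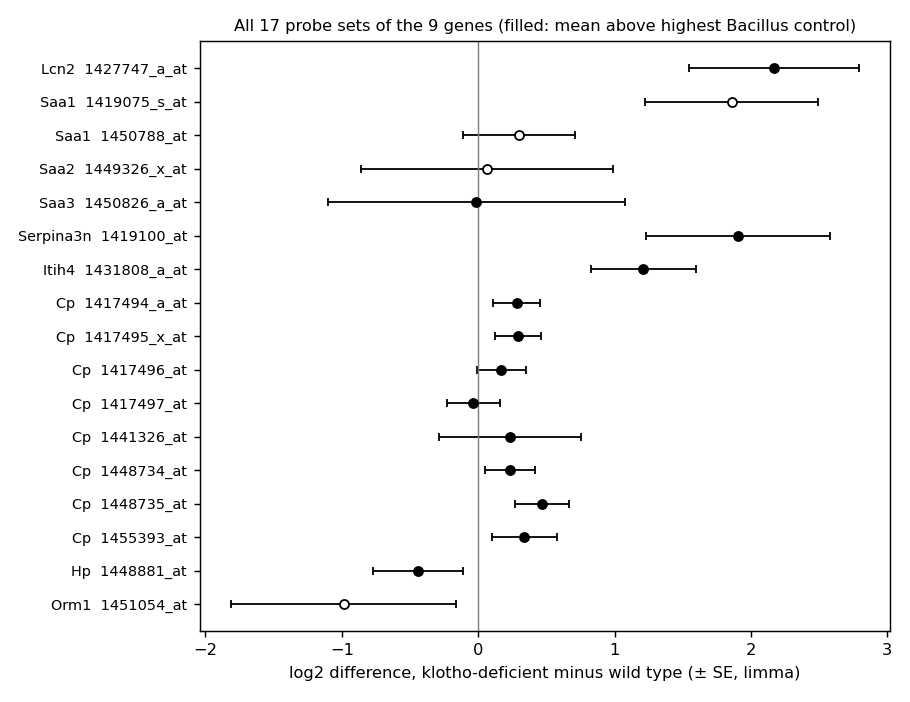
Log2 difference, klotho-deficient minus wild type, ± SE from limma (x axis) for each of the 17 probe sets (y axis), filled where the mean intensity exceeds the highest Bacillus control. Lcn2, Serpina3n and Itih4 lie furthest right at 2.17, 1.91 and 1.21 among filled points, and the Cp probe sets lie between -0.04 and 0.47.

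Haptoglobin and orosomucoid did not follow Lcn2. Hp measured 1341.7, 953.6 and 681.8 in klotho-deficient roots and 1680.8, 1284.8 and 1009.9 in wild type. The genotypes overlapped, with a difference of -0.44 ± 0.33 (limma adjusted p = 0.885). Of 8 measured adipocyte markers, 4 (Adipoq, Lep, Cidec and Pck1) had the order of arrays of Hp within both genotypes and 4 (Fabp4, Plin4, Retn and Lipe) did not. The part of fat in the Hp signal was not tested. Orm1 gave 34.6, 282 and 42.8 against 219.1, 134.4 and 110.1, above background on 1 array of each genotype, so it is given with no fold. Its klotho-deficient maximum was again replicate 2, and its fitted difference of -0.99 ± 0.83 went to -1.94 when that array was left out and to -0.43 when klotho-deficient replicate 1 was.

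Genes whose pattern over the 6 arrays was most like that of Lcn2 were found by the root mean square difference of log2 values, each gene centred on its own mean, among 13576 other genes with a mean above background. The nearest was Ptgs2, the inducible cyclooxygenase, at 0.29, with 3428.9, 8789.7 and 8634.9 against 1096.2, 1457.3 and 2016.9. Next came Timp1, an inhibitor of matrix metalloproteinases, at 0.35, and Chil3, a chitinase-like protein of myeloid cells, at 0.47. Cxcl1, a neutrophil-attracting chemokine, followed at 0.47, with 920.1, 7667.7 and 2586.6 against 876, 709.8 and 1286.7. Serpina3n was the fifth, at 0.51. By this measure Cp at 1.18 and Itih4 at 1.20 took ranks 1590 and 1975 of the 13576. Saa3 at 1.44 and Hp at 1.67 were far from Lcn2, at ranks 10618 and 13088. Saa1, Saa2 and Orm1 had means within background and were not compared. All the near genes were high on klotho-deficient replicates 2 and 3, so the likeness is one over 6 shared arrays and carries no test.

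**Figure D3:**
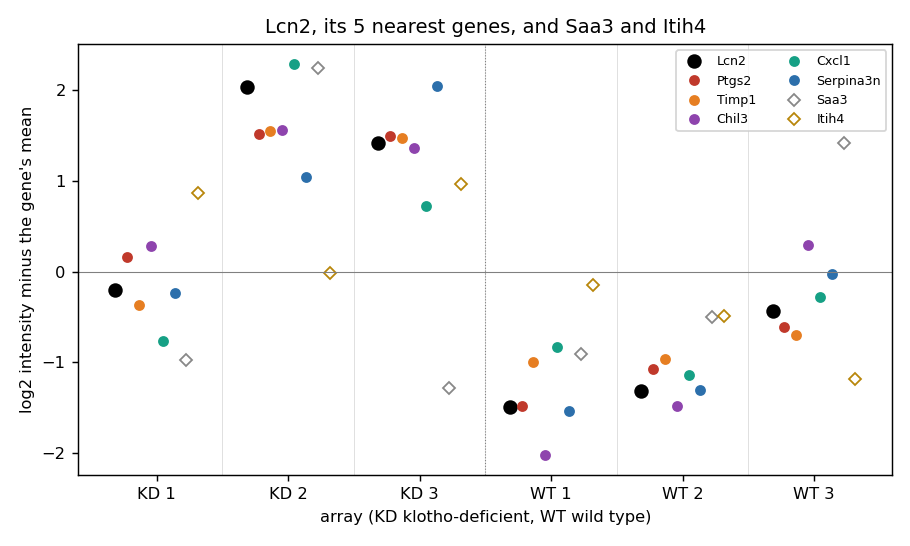
Log2 intensity of each gene minus its own mean over the 6 arrays (y axis), by array (x axis), for Lcn2, its 5 nearest genes and, as open diamonds, Saa3 and Itih4. Lcn2 and its nearest genes are highest on klotho-deficient replicates 2 and 3, whereas Saa3 is highest on klotho-deficient replicate 2 and wild-type replicate 3 and Itih4 on klotho-deficient replicates 1 and 3.

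Upstream of these genes, 11 of 12 listed inducing cytokines were measured, 7 of them above background on some array, and 0 were called in limma. At an unadjusted p under 0.05 there were 3 of the 11, against 5.94% of all probe sets. Il6, the main inducer, was at 10.1, 6.8 and 8.7 in wild type and at 74.3, 808.3 and 56.4 in klotho-deficient roots. It passed background on klotho-deficient replicate 2 alone, the array that was highest for Lcn2 and all 3 Saa genes. On wild-type replicate 3, where Saa3 reached 1172.4, Il6 was at 8.7. The part of Il6 in the levels of these genes was not tested. Other ligands that signal through gp130 lay in both directions, Osm and Clcf1 at 0.51 and 0.48 with overlap. Ctf1, cardiotrophin 1, measured 431.1, 552.1 and 635.7 against 1049.5, 874.3 and 1164.6 (-0.94 ± 0.23, limma adjusted p = 0.731). Lif measured 228.3, 343.8 and 217.1 against 408, 568.3 and 478.1 (-0.90 ± 0.26), and its dimmer probe set gave -0.14 ± 0.35. Neither Ctf1 nor Lif overlapped between genotypes at its brightest probe set. The list had a median difference of -0.02 over the 11 measured and of 0.23 over the 7 above background on some array.

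Of 11 measured cytokine receptors, all above background on some array, 9 were higher and 2 lower, with a median of 0.16 and 0 calls in limma (0 at an unadjusted p under 0.05). Osmr, the oncostatin M receptor, measured 5623, 6652.9 and 7442.9 against 4053.9, 5479.4 and 4298.7 (0.52 ± 0.22), and its other probe sets gave 0.78 and 0.62. Il1r1, the interleukin 1 receptor, measured 4842.4, 5928.4 and 8196 against 4502.5, 4420.1 and 3815.6 (0.54 ± 0.25). Its partner Il1rap gave 0.57 ± 0.25 at its brightest probe set, 0.35 ± 0.22 at 1421843_at and 0.00 ± 0.21, with overlap, at 1449585_at. At the brightest probe set 4 of the 11 receptors were higher without overlap, these 3 and Lifr (0.14), against 6.63% of all genes. For Osmr, Il1r1 and Il1rap limma gave an adjusted p of 0.835 each. The Osmr probe set at 0.62 overlapped.

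Among transcription factors and feedback genes, 9 of 11 measured were higher and 2 lower, with a median of 0.16 and 0 calls in limma (0 at an unadjusted p under 0.05). Stat3, the transcription factor downstream of interleukin 6, measured 5006.6, 5651.2 and 7439.2 against 3957.7, 4648.9 and 4605.1 (0.44 ± 0.22, limma adjusted p = 0.861). Its groups did not overlap there, while its other probe sets gave 0.07 to 0.26. Cebpa, a C/EBP factor of liver and fat, measured 1411 ± 225 against 1826 ± 116 (SD, n = 3; -0.38 ± 0.20). Nfkbiz, an NF-kB cofactor for Lcn2, was highest on klotho-deficient replicate 2 at 10751.7, the other klotho-deficient arrays giving 7993.8 and 5343.6, and the wild-type arrays spanned 4391.3 to 5747.7 (0.56 ± 0.31).

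A further 37 positive acute phase proteins were listed, of which 26 were measured and 17 were above background on some array. Of the 26, 17 were higher and 9 lower, with a median of 0.18 and 0 calls in limma. The median was 0.09 over the 17 above background on some array. At an unadjusted p under 0.05 there were 5 of the 26, against 5.94% of all probe sets. Itih3, a heavy chain of the same family as Itih4, measured 1975.1, 2266.8 and 3240.6 against 1079.1, 1354.3 and 905.6. Its klotho-deficient arrays all lay above wild type, and wild-type replicate 3 was lowest, as for Itih4 (1.15 ± 0.27, limma adjusted p = 0.721). Serpina1b, an alpha-1-antitrypsin gene, went the other way, at 188.7, 267.2 and 432.8 against 939.5, 466.7 and 1658.5 (-1.69 ± 0.54, limma adjusted p = 0.782). It has near-identical copies whose signals the probes may share. Vnn1, a pantetheinase, measured 1763 ± 279 against 2693 ± 243 (SD, n = 3; -0.62 ± 0.21), without overlap, and its other probe set gave -0.61. Crp and Saa4 stayed within background on all arrays.

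Negative acute phase proteins, which fall or stay flat in the liver's response, were 5 higher and 7 lower among 12 measured, with a median of -0.19 and 0 calls in limma (0 at an unadjusted p under 0.05). Rbp4, the retinol carrier, measured 8477 ± 1266 against 11274 ± 2211 (SD, n = 3; -0.40 ± 0.23), with overlap. Ttr, transthyretin, and Alb, albumin, were near background, at 51.6 to 230.7 and 64.8 to 286.3 over the 6 arrays, and overlapped.

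Receptors and partners of the 9 proteins were 9 higher and 9 lower among 18 measured, with a median of 0.00 and 0 calls in limma. At an unadjusted p under 0.05 there were 3 of the 18, against 5.94% of all probe sets. Hmox1, which degrades haem, measured 1024.1, 821.2 and 706.7 against 687.2, 441.6 and 421.6 (0.74 ± 0.28), without overlap. Scara5, a ferritin receptor, measured 7461.7, 8139.6 and 5675.2 against 10029.8, 9634.1 and 11775.3 (-0.57 ± 0.22), also without overlap, though its dimmer probe set gave 0.07. Lrp2, megalin, an endocytic receptor that takes up lipocalin 2, measured 297.2 ± 86.2 against 489.1 ± 81.9 (SD, n = 3; -0.75 ± 0.29). The limma adjusted p was 0.830 for Hmox1 and 0.835 for Scara5 and Lrp2.

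**Figure D4:**
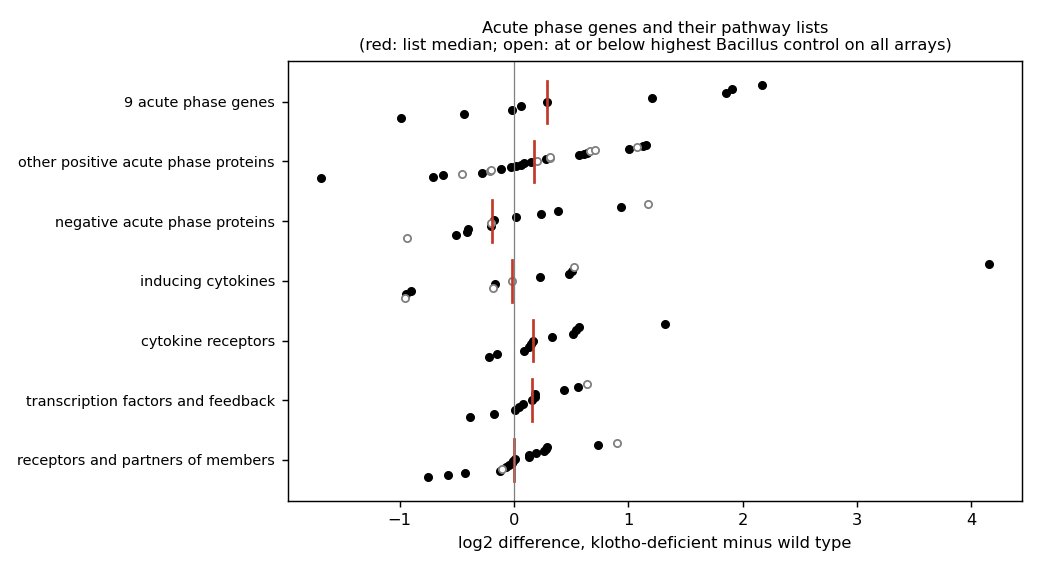
Log2 difference, klotho-deficient minus wild type (x axis), of each measured gene in the 9 acute phase genes and 6 pathway lists (y axis), 1 point per gene, with the list median in red and genes within background on all arrays as open points. List medians lie between -0.19 and 0.29, and the point at 4.16 is Il6, which passed background on 1 array.

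Markers of cells that make these proteins were read beside them. In a bulk sample, fewer cells of a type and less RNA per cell cannot be told apart. Of 12 neutrophil markers 11 were measured and 6 passed background on some array. Of the 11, 9 were higher in klotho-deficient roots, against 50.4% of all genes. These 9 included Cxcr2, Csf3r and Mmp8, whose signals were background only. The list's summed intensity was 1927.1 to 2879.2 in klotho-deficient and 1194.4 to 1611.6 in wild-type roots, without overlap. Much of that gap came from S100a9, with means of 860 and 119. Only S100a8 and S100a9 were higher without overlap, 2 of the 11 against 6.63% of all genes. Ngp, Camp, Ltf and Mmp9 overlapped. Within the list S100a9 measured 592.6, 886.8 and 1100.2 against 26.3, 24.2 and 307.9, with its wild-type maximum on replicate 3 as for Lcn2. On wild-type replicates 1 and 2 S100a9 was within background. Elane, Mpo, Cxcr2, Csf3r and Mmp8, also on the neutrophil list, were within background on all 6 arrays. The part of neutrophils in the Lcn2 difference was not tested.

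The summed intensities of the other marker lists overlapped between genotypes. Hepatocyte markers, 12 of 13 measured and 10 above background on some array, summed to 5959 to 10500 in klotho-deficient and 6856.1 to 7821.8 in wild-type roots, most of it Cyp2e1, which fat also expresses. Hnf4a and Fgg were within background on all arrays. Cyp2e1, Ahsg, Apoa1 and Fgb were above it on every array, and the other measured hepatocyte markers on some arrays only. Ahsg measured 1331.8, 1006.2 and 2418.8 in klotho-deficient and 668.3, 1015.7 and 2154.1 in wild-type roots. Apoa1 and Fgb were dimmer, at 164.4 to 440.3 and 193.2 to 380.9 over the arrays. All 10 macrophage markers were measured, 9 above background, and they summed to 65576 to 82585 against 58517 to 85753. Adipocyte markers, 8 of 10 measured and all 8 above background, summed to 28469 to 43923 against 35096 to 43574. Of the 11 mesothelial and epithelial markers 9 were lower in klotho-deficient roots, 4 of them without overlap, against 6.84% of all genes. That list summed to 26128 to 43404 against 40359 to 67466. Of the 9 endothelial markers 8 were lower, 4 of them without overlap, against the same 6.84%. The endothelial list summed to 29810 to 36879 against 34327 to 64894. Both lists were highest on wild-type replicate 3, where Saa3 was high in wild type, but not on klotho-deficient replicate 2, the other array with high Saa3. Of the 8 cartilage markers 7 were higher, with a median difference of 0.82. The list summed to 5205.8, 12970.7 and 21506.8 on klotho-deficient replicates 1 to 3, the same klotho-deficient order as Serpina3n. On wild-type replicates 1 to 3 it summed to 6592.8, 7681.6 and 4856.4. It was thus lowest on wild-type replicate 3, where Serpina3n had its wild-type maximum. The part of these cell types in the Saa3 and Serpina3n signals was not tested.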

How the data were processed

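The authors deposited linear array intensities, 1 per probe set, for 6 Affymetrix arrays; RMA is named in the submitters' processing notes without a version, and the sources used here do not say how the linear values arose. After trimming 2% at each end the mean was 1500.01 on all 6 arrays, a common scaling of the deposited intensities that RMA alone does not give. RNA was amplified and biotin-labelled with NuGEN kits, per the labels' protocols. Values from 0.1 to 131884.9 were log2-transformed without offset or further scaling, so dim differences are unstable. The number of arrays limits the precision. Genes were named from the platform annotation (34945 probe sets with 1 symbol, 932 with several, 9160 with none, 64 controls). A gene identifier was found for 34741 in RefSeq (GRCm38.p6), which changed 0 symbols. The genotype test was limma 3.58.1 under R 4.3.3 (lmFit, eBayes, two-sided, 4 residual and 2.17 prior degrees of freedom), checked on simulated data. Genes outside the 9 were named by a rule, the 3 of smallest p above background in each pathway list; a rule also chose the 5 genes nearest to Lcn2. Crp, Saa4, Osm, Clcf1, Lifr and single markers were chosen after their values were seen. Alternatives changed scaling, offset, filters, variance prior, weights, probe sets, covariates and arrays. Members, lists and rule were chosen with earlier results of these data known. Figures used matplotlib 3.10.9 in Python 3.11.15.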

Additional observations from a re-analysis of the deposited data

How the results depend on the processing

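Over 17 alternative settings, 0 probe sets of the 9 genes and 0 genes of the pathway lists were called. Over all probe sets the count was 1 with dim probe sets left out, 1 with an offset of 50 and 3 with a trended and robust prior, and 0 otherwise; the calls were Dbp and Sphk2, and the cause was not tested. Lcn2, Serpina3n, Itih4 and Cp kept their direction in all 16 refits, at 0.88 to 2.81, 0.72 to 2.50, 0.92 to 1.52 and 0.25 to 0.32; Saa1 and Orm1 did so in 15, at 1.00 to 2.50 and -2.10 to -0.43. The lowest for Lcn2 and Serpina3n came with the term for arrays without Y-linked transcripts. That term turned Hp to 0.049 and Saa2 to -1.45. Array weights turned Saa2 to -0.058 and Saa3 to 0.20, and Saa3 was 0.028 with an offset of 50 and 0.043 after quantile normalization; the cause was not tested. With 1 array left out Saa2 ran from -0.61 to 0.82 and Saa3 from -1.14 to 0.69. Deviations of same-numbered pools correlated at 0.16, 0.02 and 0.22, and those of differently numbered pools at -0.23 to 0.12. The numbers are not stated to pair pools, so the main fit had no block. With the replicate block 0 probe sets were called, Lcn2 staying at 2.17 (limma adjusted p = 0.744). The block moved the SE in both directions, for Serpina3n from 0.67 to 0.28 and for Saa3 from 1.09 to 1.13. Probe sets dim on average, Saa1, Saa2 and Orm1 among them, have no value where dim probe sets were left out.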

Other observations

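Further acute phase genes were looked at after their values were seen. Tnfaip6, a hyaluronan-binding protein that transfers inter-alpha-trypsin inhibitor heavy chains, measured 623.3, 1620.6 and 2220 in klotho-deficient roots and 517.1, 667.6 and 797.1 in wild type (1.01 ± 0.50, limma adjusted p = 0.856), with overlap at klotho-deficient replicate 1. Ptx3, a pentraxin made locally in inflamed tissue, measured 1147.8, 2910 and 5273.5 against 1537.1, 1881.5 and 1702.2, also high on klotho-deficient replicates 2 and 3 and lowest on replicate 1 (0.61 ± 0.55). Lrg1, a leucine-rich glycoprotein of plasma, measured 1089.1, 1409.9 and 1309.6 against 782.8, 868.5 and 906.8, without overlap (0.57 ± 0.19, limma adjusted p = 0.802). Serping1, the C1 inhibitor, was level across the arrays, at 20010 to 21022.5 against 19274.5 to 21844.3, whereas A2m, alpha-2-macroglobulin, was lower without overlap, at 437.2 to 775.1 against 830 to 1373.7 (-0.71).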
